A study of Homo sapiens with 12 samples.

Results

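The carbonic anhydrases are zinc enzymes, and 8 of their genes were followed here through the evolution of hydroxychloroquine (HCQ) resistance in 2 human cancer cell lines. The genes were CA2, CA4, CA5B, CA8, CA9, CA11, CA12 and CA13, taken by symbol from the 28278 genes of the count table. The rule itself uses no measured value, but it was set with earlier results of these data known. All 8 were present in the table, 6 had enough counts to be tested in OVCAR3 and 5 in CCL218.

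Carbonic anhydrases interconvert carbon dioxide and water with bicarbonate and a proton, and so tie cell metabolism to intracellular and extracellular pH. CA9 and CA12 are anchored in the plasma membrane with the catalytic domain outside the cell, CA4 is held on the outer surface by a lipid anchor, CA2 and CA13 are cytosolic, and CA5B is mitochondrial. CA8 and CA11 have lost residues that bind the catalytic zinc and are called carbonic anhydrase-related proteins. CA9 is known as a target of hypoxia-inducible factor (HIF) in tumour cells, and CA12 as an estrogen-responsive gene in breast cancer cells. HCQ is a weak base that accumulates in lysosomes and raises their pH.

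Polyadenylated RNA was sequenced from 12 pools of cells, in 4 groups of 3. OVCAR3 is an established ovarian carcinoma line and CCL218 an established colorectal line. HCQ-evolved cells of each line had received 15 pulses of 20 to 50 µM HCQ, each lasting 48 h, and then 7 days without drug (passage 15), while control cells were passaged without drug (passage 19). Each group came from 1 plate, and its pools L, M and R each combined 31 wells from the left, middle or right of that plate. Passage number and plate differed between the arms together with the drug and cannot be told apart from it. A p-value here measures the spread between pools of 1 plate, which may be partly technical, and an exact permutation test of 3 pools against 3 could not go below 0.1. In bulk RNA, a smaller share of cells expressing a gene and less of its RNA per cell cannot be told apart.

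The libraries held 31147822 to 59965861 counts. Of the gene entries with 1 to 4 counts, 78.9% were even numbers, so low counts are not all single molecules. Pools of 1 group differed in a trend with transcript length. The rank correlation between a gene's transcript length and its deviation in a pool ran from -0.51 in control CCL218 L to 0.56 in HCQ-evolved OVCAR3 R. Control OVCAR3 M was at 0.52, whereas the other 4 OVCAR3 pools lay between -0.35 and -0.43, so control OVCAR3 M and HCQ-evolved OVCAR3 R stood apart from the other pools of their groups. The labels were checked against markers. Of 7 ovarian carcinoma markers, 4 reached 1 CPM (a count scaled to library size) in every pool of both lines, while SOX17 and EMX2 stayed under 3 counts throughout and WT1 was at 0.0987 to 0.407 CPM in control OVCAR3. Of 8 colorectal markers, 6 reached 1 CPM in every pool of control OVCAR3 as of control CCL218. Their summed level was 908 to 1073 CPM in control OVCAR3, 228 to 654 CPM in HCQ-evolved OVCAR3, 1109 to 1565 CPM in control CCL218 and 1169 to 1228 CPM in HCQ-evolved CCL218, with villin (VIL1) at 197 to 288 CPM in control OVCAR3. The markers thus went against a clear ovarian identity of the libraries labelled OVCAR3, and the names of both lines are used as labels. The 10 stromal and immune markers summed to 7.58 to 27.7 CPM.

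The promoter sequences of CA9 and CA12 are shown because these were the most abundant carbonic anhydrases of the control pools. Each is the 120 bases before the gene start in RefSeq on GRCh38.p14, read 5′ to 3′ on the strand of the gene. CA9 lies at chr9:35673808-35673927 (plus strand) and CA12 at chr15:63381847-63381966 (minus strand). Capitals mark a match to ACGTG, the core of the hypoxia response element, searched on both strands.
CA9: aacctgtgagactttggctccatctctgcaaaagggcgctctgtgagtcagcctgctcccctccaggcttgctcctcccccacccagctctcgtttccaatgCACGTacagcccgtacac
CA12: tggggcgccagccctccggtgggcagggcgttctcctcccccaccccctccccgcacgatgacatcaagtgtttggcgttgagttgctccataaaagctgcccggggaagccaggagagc
In CA9 the motif lies on the opposite strand and begins 18 bases before the start. Over the 250 bases before the start, CA12 and CA5B held no match, and 6501 of 35116 RefSeq promoters (18.5%) held at least 1. A match describes the letters only. CA2, CA4, CA8, CA11 and CA13 had no entry.

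Levels of the different genes were compared per kilobase of canonical transcript, from TMM-normalized CPM. CA9 was the most abundant member in all 4 groups, at 370.4 ± 90.5 CPM per kb in control OVCAR3, 798 ± 445 in HCQ-evolved OVCAR3, 208 ± 67.2 in control CCL218 and 558 ± 97.7 in HCQ-evolved CCL218 (SD, n = 3 pools). It made up 84.4% to 97.9% of the summed CPM per kb of 15 carbonic anhydrase genes in any pool. Among 25763 genes with a transcript length, CA9 ranked between 85 and 338 in every pool.

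Below CA9 the order depended on the group. In both CCL218 groups it ran CA12, CA11, CA13, CA8, CA2, CA4 and CA5B, and the pools of no pair of neighbours overlapped. In control OVCAR3 it ran CA12, CA11, CA13, CA2, CA4, CA8 and CA5B, and the pairs CA11 with CA13 and CA4 with CA8 overlapped. In HCQ-evolved OVCAR3, CA12 averaged 5.24 ± 2.69 CPM per kb, and CA11, CA12, CA13 and CA2 could not be ranked, since each overlapped with the next.

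The family's other 7 genes were too low to test. CA3 had 2 to 55 counts and CA14 had 12 to 56 counts in a pool. CA1, CA5A, CA6, CA7 and CA10 had 0 to 6 counts.

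**Figure D1:**
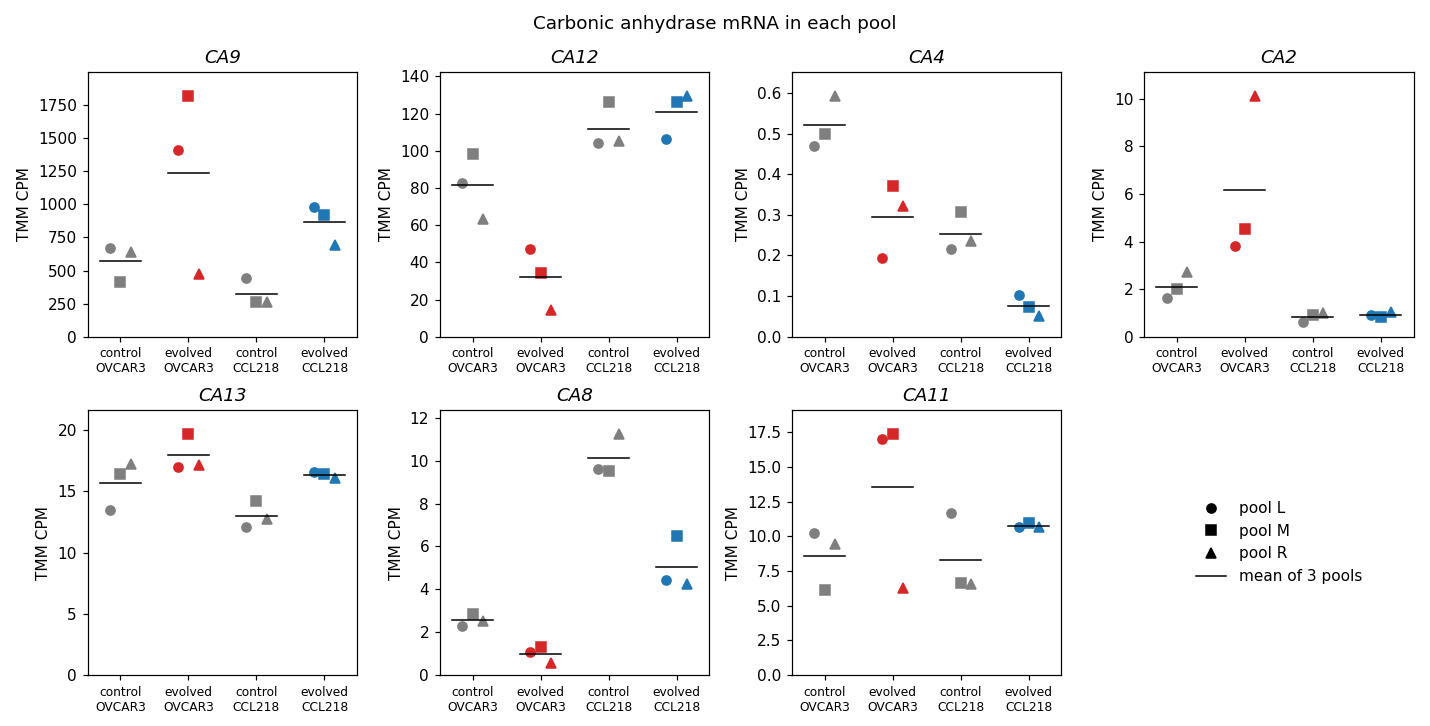
TMM-normalized CPM of 7 carbonic anhydrase genes (vertical axes, each starting at 0) in the 12 pools, by group. Symbols mark pools L, M and R and the line is the mean of 3 pools. CA5B is not drawn because it had 0 counts in 11 pools. CA9 and CA11 in HCQ-evolved OVCAR3 R sit among the control pools, while CA8 is lower in every HCQ-evolved pool than in any control pool of its line.

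CA9 (chromosome 9, 35673928 to 35681159, plus strand, GENCODE 44 on hg38) encodes the tumour-associated carbonic anhydrase of the cell surface. Its RNA was higher in HCQ-evolved than in control CCL218. In control CCL218 it was at 441 (L), 263 (M) and 260.0 (R) CPM, and in HCQ-evolved CCL218 at 978, 919 and 692 CPM. The groups did not overlap, and the lowest HCQ-evolved pool was above the highest control pool. The difference was log2 1.40 (SE 0.26), 2.63-fold, and passed edgeR's quasi-likelihood test with Benjamini-Hochberg adjustment (adjusted p = 0.0266). In the fit of all 12 libraries CA9 did not pass (adjusted p = 0.0848).

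In control OVCAR3, CA9 was at 668 (L), 412 (M) and 638 (R) CPM, and in HCQ-evolved OVCAR3 at 1411, 1817 and 475 CPM. Pools L and M lay above every control pool and pool R lay within the control range. The difference was log2 1.08 (SE 0.46) and did not pass (edgeR adjusted p = 0.304). Without HCQ-evolved R it was log2 1.46 and passed (adjusted p = 0.0174), and it ranged from 0.70 to 1.20 when any of the other pools was left out. With the trend in length and GC content removed, HCQ-evolved R moved from log2 -0.24 to log2 0.29 against the control mean, pools L and M were at 1.28 and 1.61, and the fitted difference was log2 1.16 (adjusted p = 0.0576). Of the exonic bases of CA9, 571 (35.7%) are shared with ARHGEF39 on the opposite strand. The strand setting of the counting was not given in the sources used here. ARHGEF39 was at 18.3 to 48.1 CPM, far below CA9 in every pool. How the shared bases affected the count of CA9 was not tested.

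CA12 (chromosome 15, 63321378 to 63381846, minus strand) encodes another transmembrane carbonic anhydrase with an extracellular active site. It was lower in HCQ-evolved than in control OVCAR3 in every pool and close to control in CCL218. In control OVCAR3 it was at 82.9 (L), 98.2 (M) and 63.6 (R) CPM, and in HCQ-evolved OVCAR3 at 47.1, 34.2 and 14.5 CPM. The groups did not overlap and HCQ-evolved R was the lowest pool. The difference of log2 -1.38 (SE 0.41), to 0.384 of control, did not pass (edgeR adjusted p = 0.142, unadjusted p = 0.0104). It passed with DESeq2 (adjusted p = 0.0131) and when all 12 libraries were fitted together (adjusted p = 0.0253). Without HCQ-evolved R it was log2 -1.04 (adjusted p = 0.0559).

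In control CCL218, CA12 was at 104 (L), 127 (M) and 105 (R) CPM, and in HCQ-evolved CCL218 at 107, 126 and 129.5 CPM. The groups overlapped, and the difference of log2 0.08 (SE 0.14) did not pass (edgeR adjusted p = 0.723). Its sign turned when the length and GC trend was removed (log2 -0.038).

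CA4 (chromosome 17, 60149942 to 60170899, plus strand), the lipid-anchored enzyme, was scarce. It had 19 (L), 16 (M) and 32 (R) counts in control OVCAR3 and 11, 19 and 19 in HCQ-evolved OVCAR3. In control CCL218 it had 9, 14 and 11 counts and in HCQ-evolved CCL218 5, 4 and 3 counts. Scaled to library size, the HCQ-evolved pools lay below every control pool in both lines, at 0.194 to 0.371 against 0.469 to 0.593 CPM in OVCAR3 and at 0.0508 to 0.103 against 0.217 to 0.306 CPM in CCL218. All of these levels were below the filter of 1 CPM in 3 libraries. In a fit with no filter the differences were log2 -0.80 (SE 0.53, adjusted p = 0.563) in OVCAR3 and log2 -1.71 (SE 0.70, adjusted p = 0.206) in CCL218, and neither passed.

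CA2 (chromosome 8, 85463968 to 85481493, plus strand) is the fast cytosolic enzyme found in many tissues. In control OVCAR3 it was at 1.63 (L), 2.0 (M) and 2.70 (R) CPM, and in HCQ-evolved OVCAR3 at 3.81, 4.51 and 10.1 CPM. Every HCQ-evolved pool was above every control pool, and pool R was the highest. The difference of log2 1.53 (SE 0.43), 2.88-fold, did not pass (edgeR adjusted p = 0.128, unadjusted p = 0.00848), and it was log2 0.94 without HCQ-evolved R (adjusted p = 0.104). It passed with DESeq2 (adjusted p = 0.0123), with no filter (adjusted p = 0.0488) and in the fit of all 12 libraries (adjusted p = 0.0249).

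In CCL218, CA2 was near 1 CPM and was not tested with the filter. Control pools had 0.626 (L), 0.917 (M) and 0.985 (R) CPM, and HCQ-evolved pools 0.908, 0.812 and 1.05 CPM. The groups overlapped, with a difference of log2 0.14 (SE 0.34, adjusted p = 0.849) in the fit without a filter.

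CA13 (chromosome 8, 85220587 to 85284073, plus strand) is a cytosolic relative of CA2, and of the tested members it had the smallest log2 fold change in OVCAR3. It was at 13.5 (L), 16.4 (M) and 17.2 (R) CPM in control OVCAR3 and at 17.0, 19.7 and 17.2 CPM after evolution. The groups overlapped (log2 0.17, SE 0.18, edgeR adjusted p = 0.701). In CCL218 it was at 12.1, 14.2 and 12.7 CPM in control and at 16.6, 16.5 and 16.1 CPM in HCQ-evolved pools. Here the groups did not overlap, but the difference of log2 0.31 (SE 0.12) did not pass (edgeR adjusted p = 0.175).

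CA5B (chromosome X, 15688830 to 15788411, plus strand) encodes a mitochondrial enzyme. It had 0 counts in 11 pools and 1 count in HCQ-evolved CCL218 R, under the floor of 3 counts. That floor is what a count of 0 allows from counting error alone if each count is an independent molecule. Low counts here were mostly even, so the true allowance may be wider. The neighbouring pseudogene CA5BP1 had 181 to 599 counts in the same pools. CA5B shares 29 of its 8522 exonic bases (0.3%) with CA5BP1 and 22% with INE2 on the opposite strand. Whether its reads were assigned to either gene was not tested, and its level in these counts is uncertain.

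CA8 (chromosome 8, 60185412 to 60281400, minus strand) encodes a related protein without carbonic anhydrase activity that binds an inositol trisphosphate receptor. Its RNA was lower after evolution in both lines. In control CCL218 it was at 9.64 (L), 9.52 (M) and 11.2 (R) CPM, and in HCQ-evolved CCL218 at 4.44, 6.48 and 4.23 CPM. The groups were well apart, and the decrease of log2 -1.03 (SE 0.20), to 0.490 of control, passed (edgeR adjusted p = 0.0316).

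In control OVCAR3, CA8 was at 2.29 (L), 2.84 (M) and 2.54 (R) CPM, and in HCQ-evolved OVCAR3 at 1.06, 1.29 and 0.575 CPM. The groups did not overlap and pool R was again the lowest. The difference of log2 -1.42 (SE 0.34), to 0.374 of control, did not pass (edgeR adjusted p = 0.0872). It passed with DESeq2 (adjusted p = 0.00517) and in the fit of all 12 libraries (adjusted p = 0.00942). Without HCQ-evolved R it was log2 -1.16 (adjusted p = 0.0528).

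CA11 (chromosome 19, 48637946 to 48646187, minus strand), also a related protein without activity, is a secreted protein best known from brain. In OVCAR3 it was at 10.2 (L), 6.14 (M) and 9.44 (R) CPM in control and at 17.0, 17.4 and 6.29 CPM in HCQ-evolved pools. As for CA9, pools L and M lay above every control pool and pool R lay within the control range, and the difference of log2 0.62 (SE 0.40) did not pass (edgeR adjusted p = 0.493). In CCL218 it was at 11.7 (L), 6.66 (M) and 6.53 (R) CPM in control and at 10.6, 10.9 and 10.7 CPM in HCQ-evolved pools. Control L alone was above the HCQ-evolved pools. The difference of log2 0.35 (SE 0.25) did not pass (adjusted p = 0.416), but it passed without control L (log2 0.68, adjusted p = 0.00312) and with the length and GC trend removed (log2 0.53, adjusted p = 0.0408).

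**Figure D2:**
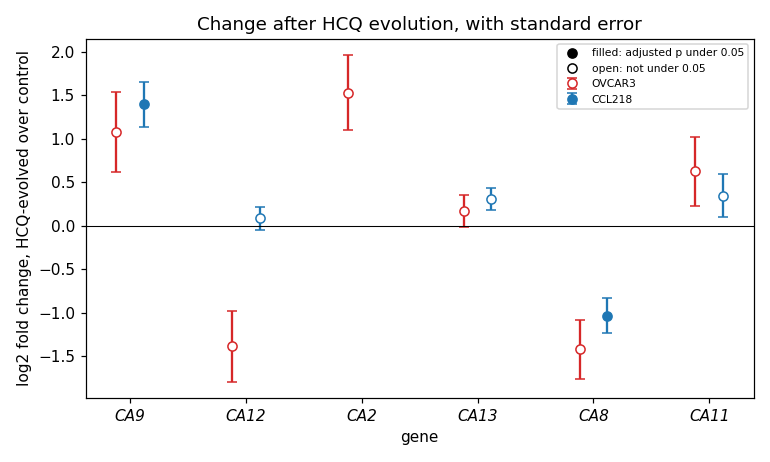
Log2 fold change of HCQ-evolved over control (vertical axis) for each tested carbonic anhydrase gene (horizontal axis) in OVCAR3 (red) and CCL218 (blue), with standard error bars from edgeR and 3 pools per group. Filled points passed an adjusted p of 0.05. Only CA9 and CA8 in CCL218 are filled, at log2 1.40 and -1.03, and CA12 is at -1.38 in OVCAR3 and 0.08 in CCL218.

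In CCL218, 2 of the 5 tested members passed, CA9 higher and CA8 lower, where 6.46% of the 12241 genes tested passed (3.82% higher and 2.64% lower). Groups did not overlap for 3 of these 5 (CA9, CA13 and CA8), against 36.1% of all genes (19.8% higher and 16.3% lower). The median log2 fold change of the 5 was 0.31, against -0.02 over all genes tested. With 1 pool left out, the sizes stayed close while most calls were lost. Neither gene passed without control M, control R or any 1 HCQ-evolved pool (log2 1.26 to 1.54 and adjusted p = 0.0616 to 0.14 for CA9, log2 -0.91 to -1.24 and adjusted p = 0.0544 to 0.146 for CA8), fits that have 5 libraries in place of 6, and both passed without control L, with log2 1.70 and -1.06, as did CA11. With plate position as a block, both passed (log2 1.43 and -1.05).

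In OVCAR3, 0 of the 6 tested members passed the edgeR test, where 1.86% of the 12204 genes tested passed (0.647% higher and 1.21% lower). At an unadjusted p under 0.05 there were 4 of 6 members (CA2, CA8, CA9 and CA12), against 16.2% of all genes. DESeq2 called 3 of the 6 (CA2, CA8 and CA12), but it also called 1105 genes in all, against 227 with edgeR. Groups did not overlap for 3 of the 6 (CA2, CA8 and CA12), against 25.9% of all genes (14.5% higher and 11.4% lower). With 1 pool left out, CA9 passed without HCQ-evolved R and no other member passed without any pool. The count over all genes without HCQ-evolved R is not given, and whether that call is particular to CA9 was not tested. The median log2 fold change of the 6 was 0.40, against 0.02 over all genes.

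Whether a member's change differed between the lines was tested as an interaction in 1 fit of all 12 libraries. None of the 6 members passed the edgeR test, where 0.872% of 12613 genes did (0.69% higher and 0.182% lower). An unadjusted p under 0.05 was seen for 2 members (CA12 and CA2), against 9.11% of all genes. The largest difference was that of CA12, whose change was log2 1.48 (SE 0.47) higher in CCL218 than in OVCAR3 (adjusted p = 0.237, unadjusted p = 0.00899). For CA2 the change was log2 -1.39 (SE 0.53) lower in CCL218 (adjusted p = 0.373, unadjusted p = 0.0223). For CA8, CA9, CA11 and CA13 the differences were log2 0.41 (SE 0.38), 0.33 (SE 0.59), -0.26 (SE 0.52) and 0.16 (SE 0.19). DESeq2 called 0 of the 6 members as well. That of CA9 was log2 -0.053 without HCQ-evolved OVCAR3 R and that of CA11 was 0.088 without control CCL218 L.

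The control groups of the lines were compared to give the levels in cells passaged without drug. The starting cells were not analysed here. CA8 was higher in control CCL218 than in control OVCAR3, by log2 1.97 (SE 0.27) or 3.92-fold, with pools apart (edgeR adjusted p = 0.00262). It was the only member that passed, where 3.42% of 12613 genes did (1.35% higher and 2.07% lower). Pools were apart for 3 of the 6 members, CA8 and CA12 higher and CA2 lower in CCL218, against 17.8% of all genes (8.94% higher and 8.83% lower). CA2 was lower by log2 -1.34 (SE 0.38) with pools apart and did not pass (edgeR adjusted p = 0.0931). It passed without HCQ-evolved OVCAR3 R (edgeR adjusted p = 0.0114). That pool belongs to neither control group and enters this comparison only through the shared fit. CA12 was log2 0.44 (SE 0.33) higher in CCL218, with pools apart and an adjusted p of 0.527. CA9 was log2 -0.85 (SE 0.42) lower in CCL218 with overlapping pools (adjusted p = 0.382). CA11 and CA13 differed by log2 -0.07 (SE 0.37) and -0.29 (SE 0.13) and did not pass. The sign for CA11 turned in 4 of the alternatives tried.

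CA9 was set beside other genes known to respond to HIF, a list of 25 that did not include it. In this and the following lists, rose and fell mean a call at an edgeR adjusted p under 0.05. Of all genes tested, 6.46% were called in CCL218 and 1.86% in OVCAR3. In CCL218, 21 of the 22 list members tested rose and none fell, with a median of log2 1.66, and P4HA2, a collagen prolyl hydroxylase, had the smallest p (log2 2.34, edgeR adjusted p = 0.000453). In OVCAR3, 7 of 21 rose and none fell, with a median of log2 1.03, and PFKFB4, a glycolytic regulator, had the smallest p (log2 1.78, adjusted p = 0.0101). Of these 21, 20 had log2 fold changes above 0. An unadjusted edgeR p under 0.05 was seen for 17, against 16.2% of all genes. The count that rose in OVCAR3 was 0 to 3 without any 1 of the pools other than HCQ-evolved R and 11 without HCQ-evolved R. It was 16 with DESeq2. In CCL218 it was 11 to 13 without control R or any 1 HCQ-evolved pool. For fits with 1 pool left out, here and in the lists below, the count over all genes is not given. Whether a change in such a count, as without HCQ-evolved R, is particular to a list was not tested.

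Pool by pool, the list and CA9 parted in 1 library. The median of 22 hypoxia targets against the control mean was log2 1.01 (L), 1.09 (M) and 1.02 (R) in HCQ-evolved OVCAR3, so HCQ-evolved R was as high as the other pools. CA9 there was at log2 1.33, 1.70 and -0.24 against the control mean. In HCQ-evolved CCL218 the list was at log2 1.75, 1.79 and 1.49 and CA9 at 1.65, 1.56 and 1.15, lowest in pool R for both. The part of the length trend in the OVCAR3 difference was tested only by the value with that trend removed, given with CA9.

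**Figure D3:**
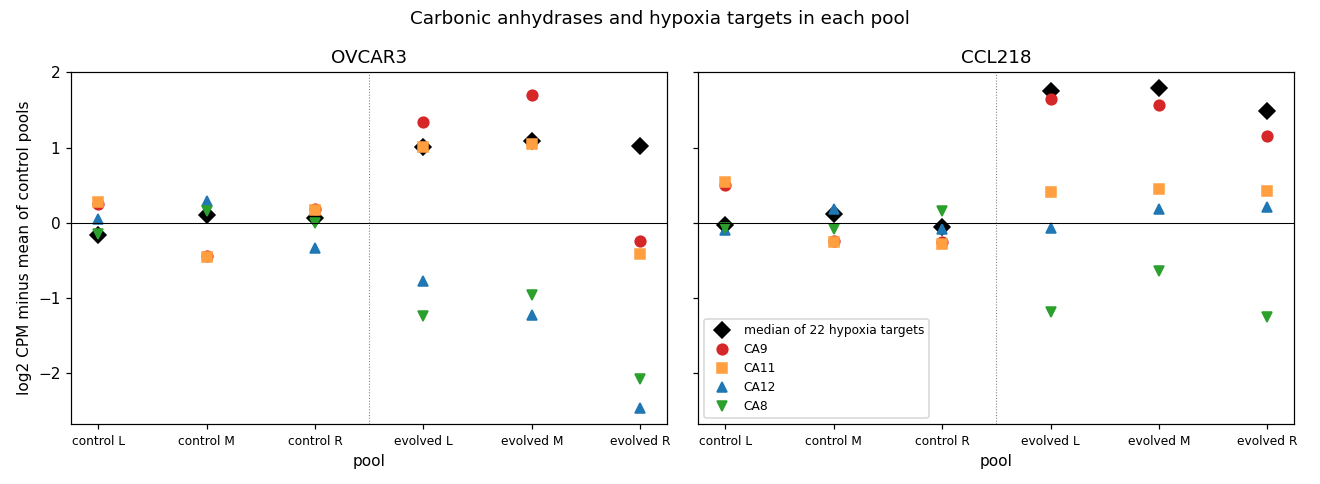
Log2 CPM minus the mean of the control pools of the same line (vertical axis) in each pool (horizontal axis), for CA9, CA11, CA12, CA8 and the median of 22 hypoxia targets (black diamonds). In HCQ-evolved OVCAR3 R the hypoxia targets are at 1.02 while CA9 is at -0.24 and CA12 at -2.47. In HCQ-evolved CCL218 CA9 lies within 0.4 of the hypoxia targets in each pool.

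HIF subunits and the oxygen sensors that mark them for breakdown were counted next. In CCL218, 2 of 8 rose and none fell, EGLN3 (log2 2.19, adjusted p = 0.00164) and EGLN1 (log2 1.15, adjusted p = 0.00724), both prolyl hydroxylases that act on HIF. In OVCAR3, 1 of 8 rose and none fell, EGLN3 (log2 1.54, adjusted p = 0.0101). Log2 fold changes were above 0 for 6 of the 8 in CCL218 and 7 in OVCAR3. An unadjusted edgeR p under 0.05 was seen for 4 and 2 of them, against 25.2% and 16.2% of all genes tested in CCL218 and OVCAR3. The list's medians were log2 0.56 and 0.37. The count that rose in OVCAR3 was 0 without any 1 control pool or HCQ-evolved M, and also 0 with plate position as a block. It was 2 without HCQ-evolved R, with DESeq2, with the length and GC trend removed and in the fit of all libraries. The CCL218 count was 4 with plate position as a block and without control L, and 1 without control R, HCQ-evolved M or HCQ-evolved R.

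Carriers that move the products of carbonic anhydrases were counted as well. Among bicarbonate transporters, 1 of 6 fell and none rose in CCL218. This was the sodium bicarbonate cotransporter SLC4A4, at log2 -1.68 (SE 0.30, edgeR adjusted p = 0.0246). In OVCAR3, 0 of 6 passed, 3 had an unadjusted p under 0.05 and DESeq2 called 1. Over all genes tested in OVCAR3, 16.2% had an unadjusted edgeR p under 0.05. DESeq2 called 1105 genes in all, against 227 with edgeR. These background values hold for the OVCAR3 counts of the lists below as well. SLC4A11 had the smallest p there, at log2 1.03 (adjusted p = 0.163), and SLC4A4 was at log2 -1.70 (adjusted p = 0.187). The medians were log2 -0.05 in CCL218 and 0.31 in OVCAR3. The CCL218 count was 2 with the block, 4 without control L, and 0 without control R or any 1 HCQ-evolved pool.

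Among proton and lactate exporters, SLC16A3, the lactate exporter MCT4, had the smallest p in CCL218 and rose there (log2 1.13, edgeR adjusted p = 0.00547). In OVCAR3, 0 of 8 passed with edgeR, 2 had an unadjusted p under 0.05 and DESeq2 called 2. SLC16A3 was closest, at log2 0.80 (adjusted p = 0.0521). The list's median in OVCAR3 was log2 0.10. The OVCAR3 count was 1 without HCQ-evolved R.

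The estrogen receptor axis was followed because of CA12. The nuclear receptors ESR1, ESR2 and PGR, and GREB1, did not reach 1 CPM in 3 libraries and were not tested in either line. In OVCAR3, all 4 tested genes had log2 fold changes below 0, with a median of -0.87, but 0 passed with edgeR, while 3 had an unadjusted p under 0.05 and DESeq2 called 2. GPER1, a membrane estrogen receptor, had the smallest p (log2 -1.01, adjusted p = 0.0896). In CCL218, 1 of 4 fell, the pioneer factor FOXA1 (log2 -0.56, adjusted p = 0.0308), and the median was 0.02. This count was 2 without control L and 0 without any other pool, and that of OVCAR3 was 1 without HCQ-evolved R.

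Genes of mature colonocytes, cells that carry several carbonic anhydrases in the gut, were mostly too low to test. In CCL218, 1 of 3 rose, CEACAM7 (log2 3.10, adjusted p = 0.0012), and 1 fell, GUCA2A, which encodes guanylin (log2 -3.06, adjusted p = 0.0193). In OVCAR3, 0 of 2 passed with edgeR, with 1 at an unadjusted p under 0.05 and 1 called by DESeq2, and FABP1 was at log2 -2.13 (adjusted p = 0.119). The medians were log2 1.14 and -0.96. Of the 2 calls in CCL218, 1 was left without any 1 pool other than control L, and in OVCAR3 1 gene passed without HCQ-evolved R. The colorectal markers were counted too. In CCL218, 4 of the 6 tested rose, against 3.82% of all genes. In OVCAR3 0 of 6 passed with edgeR, and 1 had an unadjusted p under 0.05, against 16.2% of all genes. Their part in the values of the carbonic anhydrases was not tested.

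Genes whose level was most like that of a member were sought over the 12 libraries, as a description. The points share 4 groups and their length trends, so they are not independent. For CA9 the most alike were GAL3ST1, SAT1 and HEBP1, with Pearson correlations of 0.989, 0.972 and 0.972. For CA12 they were TOR1B, HTR1D and DNAH5 (0.981, 0.980 and 0.979), and for CA8 LINC00261, PKD2L1 and ATOH1 (0.978, 0.974 and 0.973). For CA11 they were CETN3, APTR and SELENOW (0.955, 0.942 and 0.936), and for CA13 IRF2BPL, TCN2 and NR2F2-AS1 (0.943, 0.926 and 0.926). Among the members themselves, CA9 was most like CA11 (0.874) and CA8 most like CA12 (0.870).

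**Figure D4:**
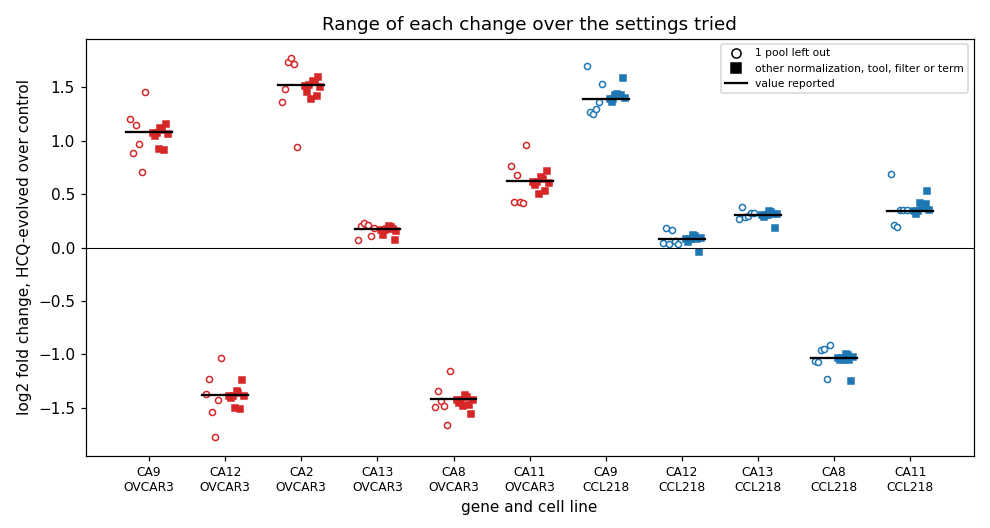
Log2 fold change of HCQ-evolved over control (vertical axis) for each tested member and line (horizontal axis), as reported (black line), with 1 pool left out (open circles) and with another normalization, tool, filter or model term (squares). CA9 stays above 0 and CA8 below 0 in both lines in all settings drawn, while CA12 in CCL218 crosses 0 once.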

How the data were processed

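The deposited values are raw counts for each gene, which the authors made by STAR alignment to hg38, duplicate removal with RmDup and featureCounts. Versions, the gene annotation and the strand setting were not given in the sources used here. Counts were taken as given for 12 libraries. Library sizes were scaled by TMM, and genes at 1 CPM or more in at least 3 libraries of a fit entered edgeR's quasi-likelihood F test (version 4.0.16 in R 4.3.3, robust, legacy mode), with Benjamini-Hochberg adjustment over all genes tested and a threshold of 0.05. Each line was fitted alone, and the interaction and the comparison of controls were fitted on all 12 libraries. Log2 CPM used a prior count of 2.

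The members, the 7 lists beside them and the markers were chosen with earlier results of these data known. The text names all members, for every list the gene of smallest p in either line's comparison, and for each member tested in both lines the 3 genes of highest Pearson correlation. EGLN1, GUCA2A and, in OVCAR3, SLC4A4 were named after their values were seen, as were single markers and BHLHE40. The count of exporters called in CCL218 is not reported here.

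In CCL218, after group means were removed, same-position pools correlated at 0.542 (L), 0.27 (M) and 0.227 (R), all above 0.1. Control M correlated more with HCQ-evolved R (0.471), and control R with HCQ-evolved M was at 0.122. The remaining pairs of different positions were below 0. The same-position value was thus highest for L. L was also the lowest pool of both CCL218 groups in the length trend (-0.505 and -0.21), which was not removed here. Whether pools of 1 position are paired beyond that trend was not tested. In OVCAR3 the same-position values were 0.422, -0.691 and -0.5, so these pools shared only a position. Every pair of pools of a group differed by more than sampling noise. Transcript lengths, GC content and coordinates came from GENCODE 44, matched to 25763 of 28278 symbols (91.1%). Promoters came from RefSeq, which held 3 of the 8 members. Alternatives were DESeq2 1.42.0, limma voom (limma 3.58.1), other scalings and filters, a block for plate position, removal of the length and GC trend, 1 fit of all libraries, and leaving out each pool. The scripts' models were tested on simulated data.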

Additional observations from a re-analysis of the deposited data

Results flagged for a closer look

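No carbonic anhydrase met a rule for a closer look. Of the genes in the 7 lists beside them, 3 had an effect of HCQ evolution that differed between the lines by edgeR's interaction test. They were 2 of the 22 hypoxia targets tested and 1 of the 3 mature colonocyte genes tested, where 0.872% of 12613 genes passed. The change in CCL218 minus that in OVCAR3 was log2 1.66 for BHLHE40 (adjusted p = 0.0197), a transcriptional repressor induced in hypoxia. It was log2 1.01 for P4HA2 (adjusted p = 0.0435). It was log2 2.91 for CEACAM7, whose adjusted p was 0.05 after rounding and under the threshold before it. Outside these lists, 2 of the 7 colorectal markers tested passed the same edgeR test. They were CDH17 (log2 3.7, adjusted p = 0.00555) and CEACAM5 (log2 2.07, adjusted p = 0.0325).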

How the results depend on the processing

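In OVCAR3, where 0 members passed, DESeq2 called 3, the fit of all 12 libraries 3 and the fit with no filter 1, and leaving out 1 pool gave 0 to 1. In CCL218, where 2 passed, the fit of all 12 libraries called 1 and leaving out 1 pool gave 0 to 3. Between the controls, where 1 passed, DESeq2 called 2, the block for plate position 2 (CA2 added), and leaving out 1 pool gave 1 to 2. The interaction called 0 in every setting tried. Pools of different lines, and those of OVCAR3, share only a position, so the block does not pair them. In CCL218 the same-position correlation was highest for L, with the length trend not removed. The block changed no other call of a member. In OVCAR3 it called 4 hypoxia targets against 7 without it, and 0 HIF subunits and oxygen sensors against 1, for which DESeq2, the trend removal and the fit of all libraries gave 2. Signs turned for CA12 in CCL218 with the length and GC trend removed (-0.038) and for CA11 between controls with the trend removed (0.20). With 1 pool left out, signs turned in the interaction of CA9 (range -0.053 to 0.72, below 0 without HCQ-evolved OVCAR3 R) and of CA11 (-0.60 to 0.088, above 0 without control CCL218 L), and for CA11 between controls (-0.42 to 0.090, above 0 without control OVCAR3 L, control CCL218 M or control CCL218 R). None of these values passed a test, and the cause was not tested. Over all genes, DESeq2 called 1105 in OVCAR3, 2172 in CCL218, 463 in the interaction and 925 between controls, against 227, 791, 110 and 431 with edgeR. For the other fits, such as that of all 12 libraries, the count over all genes is not given. Their counts of members and list genes thus have no background beside them and cannot be read as particular to these genes. With 3 pools from 1 plate a group, and with CA4 and CA5B at counts near the floor, small changes of these genes were not detectable at this depth.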
